A study of Homo sapiens with 3 samples.

Results

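The expression of 37 interferon-stimulated and major histocompatibility complex (MHC) class I presentation genes, chosen by name, was examined in 3 RNA sequencing libraries of DU145 cells. The files held 23379 genes, and 35 of the 37 listed genes had a row. HLA-C and BST2 had none and were counted as 0. DU145 is an established human line of prostate cancer cells. The 3 groups had 1 library each: L597R, transfected with plasmids for the BRAF mutant L597R; WT, overexpressing wild-type BRAF; and P-Enter, the negative control cells. BRAF is the kinase that links RAS to MEK and ERK. The labels name no interferon or other treatment, and do not say how long the cells carried the plasmids or whether they were clones. Libraries rested on 16603676 counted reads in L597R, 15665132 in WT and 13294004 in P-Enter, worked out from the deposited values. Values are FPKM, reads scaled to gene length and to 1000000 counted reads of the library. In bulk RNA, fewer cells that transcribe a gene and less RNA of it per cell cannot be told apart. With 1 library a group no difference has a replicate check or a p-value. The 95% intervals given are exact, cover counting error only (reads are not independent molecules), and compare libraries, not conditions.

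BRAF was at 9.59 FPKM in L597R, 4.41 in WT and 1.65 in P-Enter, so L597R and WT both lay above the control. Among markers listed for the line, VIM was at 132 FPKM in L597R, 127 in WT and 130 in P-Enter, and KRT18 at 37.6 FPKM in L597R, 36.6 in WT and 34.3 in P-Enter. The epithelial markers EPCAM (no row) and CDH1 (at most 0.0124 FPKM) did not reach 1 FPKM, and KLK3 and TMPRSS2 had no row, so these last markers do not show an epithelial identity for the cells. Markers of leukocytes were at or near 0: the 10 listed summed to 0.190 FPKM in L597R, 0.0279 in WT and 0.162 in P-Enter. Among these, CD3D, CD3E, MS4A1, CD68 and HLA-DRA had no row and were counted as 0. The 3 markers of plasmacytoid dendritic cells, the main producers of type I interferon, summed to 0.176 FPKM in L597R, 0.187 in WT and 0.0880 in P-Enter, all of it from IL3RA.

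Interferons are secreted proteins that bind receptors on the cell surface and act through Janus kinases and STAT factors. Type I interferons drive a complex that holds STAT2 and IRF9 to a promoter element called the interferon-stimulated response element (ISRE), and interferon gamma acts through the gamma-activated site (GAS). The induced genes restrict viruses, and some raise the display of peptides on MHC class I molecules to T cells. Many of these genes are also transcribed at a low level without interferon.

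Promoter windows of RefSeq, on GRCh38.p14, were available for 29 of the 37 genes and run from 250 bases before the start to 50 after it. The ISRE core was searched as 2 copies of GAAA with any 2 bases between them, or of TTTC on the other strand, and the GAS as TTCNNNGAA, which reads alike on both strands. The 2 patterns may overlap in a window. The core was found in windows of 20 of the 29 members (69.0%), against 4.38% of 27305 genes with a window. The GAS was found in 9 of 29 members (31.0%), against 9.38% of genes. Members are interferon-stimulated genes by choice, so these shares describe the list. A match is not a binding site, and no match says only that these letters were not in the window.

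The stretches below, from 170 bases before the start to 10 after it, are those of ISG15, shown as a long-known interferon-stimulated gene that was well detected here, of close paralogs or neighbours that stood at very different levels, and of IFIT1, IFIT5 and SAMD9, whose levels differed between libraries. Starts are those of RefSeq: the bases after the start were found in a GENCODE 29 transcript of the gene for 9 of the 10, and the stretch of IFIT5 ends at base 89414577, before the IFIT5 start at 89414586 in GENCODE 29. Capitals mark matches to the ISRE core.
ISG15, chr1:1013327-1013506, plus strand: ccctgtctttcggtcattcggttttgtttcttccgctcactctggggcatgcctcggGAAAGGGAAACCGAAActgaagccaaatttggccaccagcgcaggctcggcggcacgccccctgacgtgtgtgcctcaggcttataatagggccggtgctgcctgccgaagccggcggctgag
IFITM3, chr11:320851-321030, minus strand: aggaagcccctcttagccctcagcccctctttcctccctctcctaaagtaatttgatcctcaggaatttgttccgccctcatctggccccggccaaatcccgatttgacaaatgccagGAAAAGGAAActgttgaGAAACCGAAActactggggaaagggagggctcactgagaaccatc
IFITM1, chr11:313870-314049, plus strand: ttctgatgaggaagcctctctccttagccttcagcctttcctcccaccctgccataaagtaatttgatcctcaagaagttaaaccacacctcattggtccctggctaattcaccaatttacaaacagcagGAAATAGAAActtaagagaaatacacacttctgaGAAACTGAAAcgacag
OAS3, chr12:112938304-112938483, plus strand: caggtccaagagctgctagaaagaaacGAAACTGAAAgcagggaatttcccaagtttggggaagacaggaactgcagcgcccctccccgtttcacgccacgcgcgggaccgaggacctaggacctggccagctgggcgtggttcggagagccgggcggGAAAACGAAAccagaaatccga
OAS1, chr12:112906792-112906971, plus strand: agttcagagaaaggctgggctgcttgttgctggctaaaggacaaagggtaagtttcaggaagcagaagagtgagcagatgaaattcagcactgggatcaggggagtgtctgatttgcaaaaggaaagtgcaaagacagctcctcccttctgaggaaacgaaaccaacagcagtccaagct
IFI44, chr1:78649619-78649798, plus strand: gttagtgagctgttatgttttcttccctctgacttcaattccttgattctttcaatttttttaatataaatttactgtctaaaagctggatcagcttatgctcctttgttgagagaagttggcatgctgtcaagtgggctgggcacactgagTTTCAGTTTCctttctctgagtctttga
IFI44L, chr1:78620278-78620457, plus strand: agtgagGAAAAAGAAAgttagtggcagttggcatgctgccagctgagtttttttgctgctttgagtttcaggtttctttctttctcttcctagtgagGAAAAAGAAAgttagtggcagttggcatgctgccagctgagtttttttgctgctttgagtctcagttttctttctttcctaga
IFIT1, chr10:89392453-89392632, plus strand: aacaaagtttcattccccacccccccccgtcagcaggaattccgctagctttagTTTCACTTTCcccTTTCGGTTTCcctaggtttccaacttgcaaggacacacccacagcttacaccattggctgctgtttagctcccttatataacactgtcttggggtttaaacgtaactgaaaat
IFIT5, chr10:89414398-89414577, plus strand: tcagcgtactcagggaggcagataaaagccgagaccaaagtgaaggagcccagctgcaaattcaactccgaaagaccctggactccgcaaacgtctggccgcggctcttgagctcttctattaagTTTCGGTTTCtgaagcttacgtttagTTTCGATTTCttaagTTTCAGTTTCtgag
SAMD9, chr7:93117970-93118149, minus strand: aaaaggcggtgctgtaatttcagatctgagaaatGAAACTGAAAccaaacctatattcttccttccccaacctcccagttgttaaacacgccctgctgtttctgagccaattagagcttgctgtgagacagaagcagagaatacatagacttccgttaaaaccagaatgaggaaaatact
Matches to the core stood in the stretches of ISG15, IFITM3, OAS3 and IFI44, which were well detected, and also in those of IFITM1 and IFI44L, which had few or almost no reads. The stretch of OAS1 held none. Among members with a window, the core was in 12 of 15 with a mean of at least 1 FPKM and in 8 of 14 without. The GAS went the other way, in 2 of 15 and 7 of 14.

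Levels were graded over the list. In all 3 libraries 9 members were at 10 FPKM or more and 14 were under 0.5 FPKM, counting HLA-C and BST2, while the other 14 lay between or crossed these levels. The highest were the membrane proteins IFITM3 and IFITM2, which block the entry of enveloped viruses. IFITM3 was at 117 FPKM in L597R, 113 in WT and 120 in P-Enter, and IFITM2 at 104, 109 and 111 in the same order. Their neighbour IFITM1 was at 0.434 FPKM in L597R, 0.0766 in WT and 0.135 in P-Enter, from 12, 2 and 3 reads. These genes are close copies in sequence, and 32.5% of the exon bases of IFITM1 in GENCODE 29 also lie in exons of IFITM2, so reads may be split or lost between them.

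**Figure D1:**
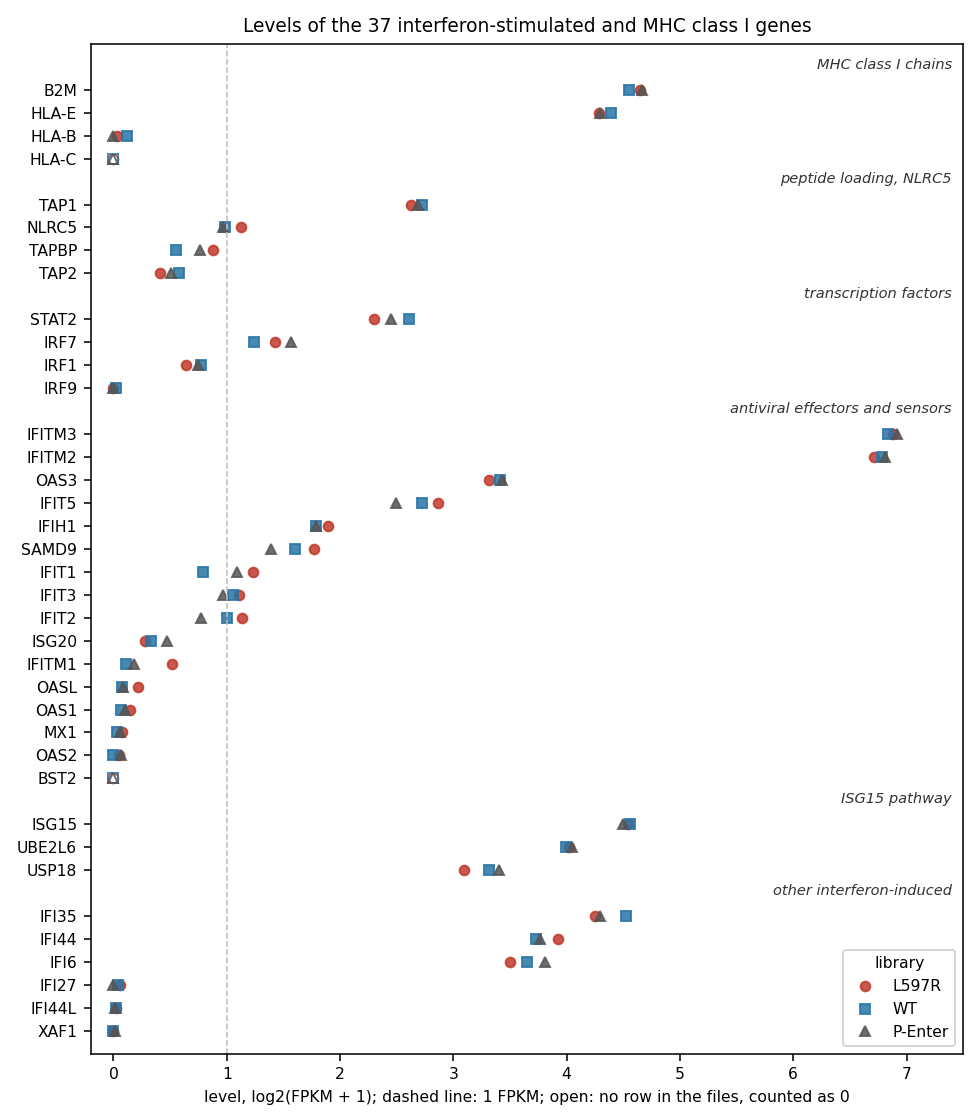
Level of each of the 37 genes as log2(FPKM + 1), in groups by role, with L597R as circles, WT as squares and P-Enter as triangles. The 3 libraries lie close together for each gene, while genes range from 0 to 120 FPKM, and neighbours such as OAS3 and OAS1, or IFI44 and IFI44L, stand far apart.

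Within the OAS and IFI44 clusters of related genes levels also lay far apart. OAS3, an enzyme that senses double-stranded RNA and activates RNase L, was at 8.93 FPKM in L597R, 9.66 in WT and 9.80 in P-Enter. It lies between OAS1 and OAS2 on chromosome 12, which are of the same family, with 5129 and 5145 bases between the annotated genes. OAS1 was at 0.106, 0.0490 and 0.0751 FPKM and OAS2 at 0.0375, 0 and 0.0469 in the same order. IFI44, which is induced by type I interferon, was at 14.2, 12.2 and 12.6 FPKM, while IFI44L, 3650 bases before it on chromosome 1, had 3 reads in L597R, 3 in WT and 1 in P-Enter. In these clusters levels thus differed from gene to gene by far more than OAS3 or IFI44 differed between libraries. In the IFIT cluster, IFIT1, IFIT2 and IFIT3 lay close together, with means of 1.07, 0.971 and 1.06 FPKM. Their neighbour IFIT5 had a mean of 5.51 FPKM. FPKM also depends on the length the authors used, which was 2.19 times the exon length of GENCODE 29 for OAS3, 2.63 times for OAS1 and 1.79 times for OAS2.

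None of the 20 members with a mean of at least 1 FPKM passed the size rule, a log2(FPKM + 1) difference of at least 1. That was so in L597R against P-Enter, where 0.808% of 10639 features passed, in WT against P-Enter (0.978%) and in L597R against WT (0.724%). Of 9358 protein-coding genes with such a mean, 11, 11 and 7 exceeded a difference of 1 in the same order. At shares this low, 0 of 20 says little about the list. Both comparisons with P-Enter use the same control library. The median difference of the 20 members was -0.02 in L597R against P-Enter, -0.01 in WT against P-Enter and 0.03 in L597R against WT. Over all features it was -0.01, 0.00 and 0.01. Single members ranged from -0.31 to 0.38, from -0.32 to 0.23 and from -0.31 to 0.44 in the same order of comparisons.

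The counting interval of the read ratio left out 1 for 6 of the 20 members in L597R against P-Enter (49.4% of all features), 7 in WT against P-Enter (26.1%) and 6 in L597R against WT (38.4%). The share of members was 30.0%, 35.0% and 30.0%, below that of all features in both comparisons of L597R and above it in WT against P-Enter. All features were not matched to the 20 members for read counts or GC content, so these shares are no like-for-like measure. In L597R against P-Enter 2 members lay above 1 and 4 below, where 25.5% of features lay above and 23.9% below. In WT against P-Enter 4 lay above and 3 below (14.0% and 12.1% of features). In L597R against WT 3 lay above and 3 below (22.1% and 16.3%). An interval beyond a ratio of 5 to 4, in either direction, was found for 0 members in L597R against P-Enter (5.69% of features) and 0 in WT against P-Enter (0.790%). In L597R against WT it was found for IFIT1 alone (1.44%). None lay beyond 1.5-fold, where 0.498%, 0.320% and 0.357% of features did in the same order of comparisons.

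**Figure D2:**
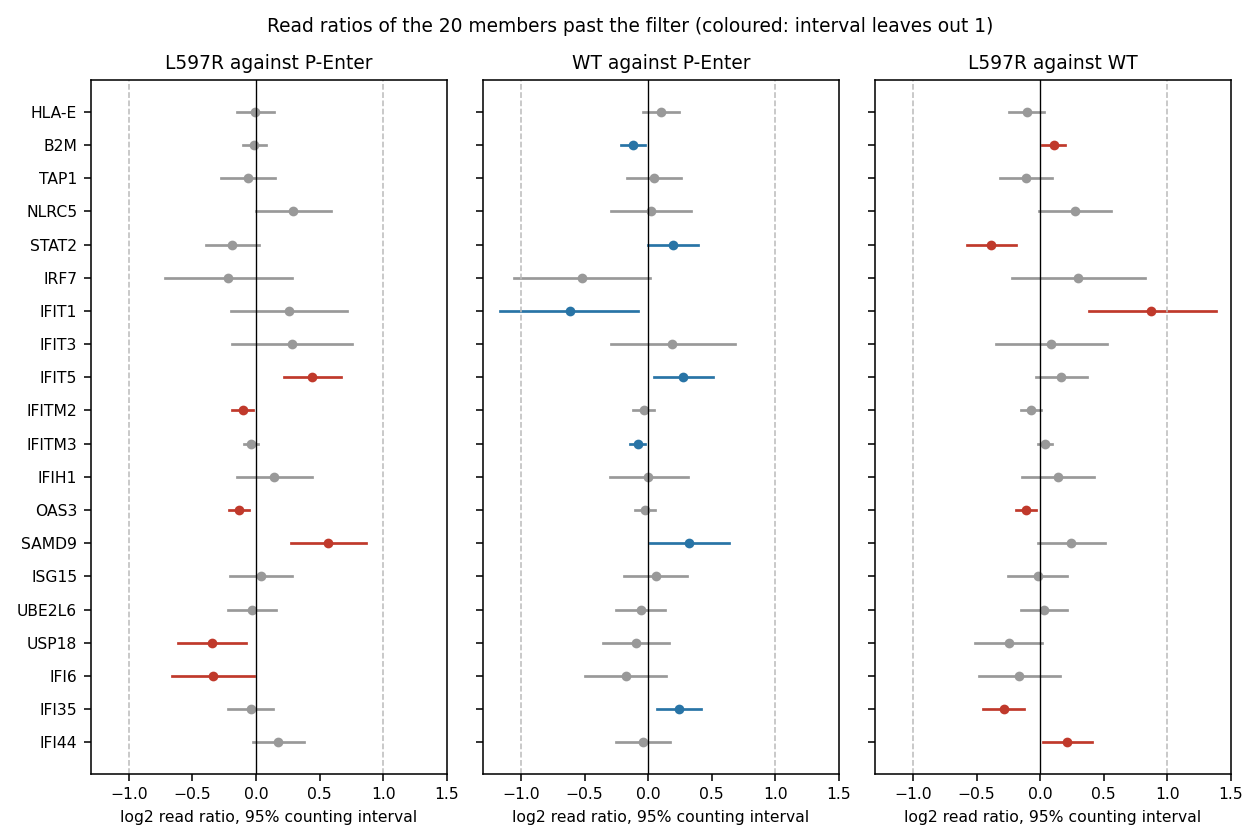
Log2 read ratio of the 20 members with a mean of at least 1 FPKM, with exact 95% counting intervals, in the 3 comparisons; coloured where the interval leaves out 1, with dashed lines at a 2-fold ratio. The largest ratios against P-Enter in L597R are those of SAMD9 (1.48) and IFIT5 (1.36), and IFIT1 is 1.83 in L597R against WT.

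Among the MHC class I genes, HLA-E and B2M were well detected and HLA-B and HLA-C were not. HLA-E, a class I molecule recognised by receptors of natural killer cells, was at 18.5 FPKM in L597R, 19.9 in WT and 18.6 in P-Enter. Its read ratio was 0.996 (0.902 to 1.10) in L597R against P-Enter and 1.07 (0.971 to 1.18) in WT against P-Enter. B2M, the light chain shared by all class I molecules, was at 24.1 FPKM in L597R, 22.4 in WT and 24.4 in P-Enter, the lowest level in WT. The ratio of WT against P-Enter was 0.919 (0.861 to 0.981) and that of L597R against WT 1.08 (1.01 to 1.15). HLA-B, a classical heavy chain, had 1 read in L597R, 4 in WT and 0 in P-Enter. A count of 0 allows up to 3 reads, or 0.0749 FPKM of HLA-B in P-Enter. Class I chains are near-identical to each other over long stretches, so their reads may be split or left out. The spans of HLA-B and HLA-C overlap in GENCODE 29, but only 35 exon bases are shared. These are 1.147% of the exon bases of HLA-B and 1.396% of those of HLA-C. The part of split or left-out reads in the low values was not tested.

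Of the listed genes of peptide loading and class I activation, TAP1 had the highest level. TAP1, a subunit of the transporter that carries peptides into the endoplasmic reticulum, was at 5.19 FPKM in L597R, 5.60 in WT and 5.43 in P-Enter, with no interval leaving out 1. Its partner TAP2 had 0.330 FPKM in L597R (35 reads), 0.490 in WT (49) and 0.424 in P-Enter (36), and 32.3% of its exon bases lie in exons of another gene on the same strand. TAPBP, which encodes tapasin, the bridge between the transporter and class I molecules, had 70 reads in L597R, 37 in WT and 47 in P-Enter. Its read ratio was 1.78 (1.18 to 2.73) in L597R against WT, 1.19 (0.812 to 1.76) in L597R against P-Enter and 0.668 (0.422 to 1.05) in WT against P-Enter. NLRC5, the transactivator of class I genes, was at 1.18 FPKM in L597R, 0.974 in WT and 0.960 in P-Enter. Its ratio in L597R against P-Enter was 1.23 (0.999 to 1.51), which held 1.

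Of the transcription factors with a mean of at least 1 FPKM, STAT2 differed most between L597R and WT. STAT2, a subunit of the complex that binds the ISRE, was at 3.92 FPKM in L597R, 5.11 in WT and 4.45 in P-Enter, with P-Enter between the others. The read ratio was 0.767 (0.670 to 0.876) in L597R against WT, 0.879 (0.761 to 1.02) in L597R against P-Enter and 1.15 in WT against P-Enter, where the interval lay just above 1 and reached 1.32. IRF7, which amplifies the type I response, was at 1.68, 1.37 and 1.96 FPKM in L597R, WT and P-Enter. All its intervals held 1. IRF1, a factor induced by interferon gamma, was at 0.555 FPKM in L597R, 0.713 in WT and 0.681 in P-Enter, with all intervals holding 1. IRF9, the DNA-binding subunit of the STAT2 complex, had 0 reads in L597R, 1 in WT and 0 in P-Enter. In GENCODE 29, 48.4% of the exon bases of IRF9 also lie in exons of another annotated gene on the same strand. Whether IRF9 transcripts were absent or their reads were not assigned was not tested.

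The IFIT genes, which encode proteins that bind viral RNA and block its translation, lie together on chromosome 10 and were all detected. IFIT5 was at 6.30 FPKM in L597R, 5.61 in WT and 4.63 in P-Enter, from 457, 384 and 269 reads. Its ratio was 1.36 (1.17 to 1.59) in L597R against P-Enter and 1.21 (1.03 to 1.42) in WT against P-Enter. IFIT2 followed the same order with 86 reads in L597R, 68 in WT and 41 in P-Enter, a ratio of 1.68 (1.15 to 2.50) in L597R against P-Enter and 1.41 (0.942 to 2.13) in WT against P-Enter. Its mean lay just below 1 FPKM. IFIT3 was at 1.15, 1.08 and 0.950 FPKM in L597R, WT and P-Enter, with every interval holding 1. IFIT1 did not follow this order: it had 103 reads in L597R, 53 in WT and 69 in P-Enter, so WT was the lowest. Its ratio was 1.83 (1.30 to 2.60) in L597R against WT, 0.652 (0.447 to 0.946) in WT against P-Enter and 1.20 (0.873 to 1.65) in L597R against P-Enter.

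SAMD9, an antiviral factor that halts translation in cells infected by poxviruses, showed the same order as IFIT5. It was at 2.41 FPKM in L597R, 2.03 in WT and 1.62 in P-Enter, from 274, 218 and 148 reads. The ratio was 1.48 (1.21 to 1.82) in L597R against P-Enter, and its interval in WT against P-Enter ran from 1.01 to 1.55. Of the 20 members 5 had this order of libraries, L597R above WT above P-Enter, as did 28.8% of all features. The reverse order was shown by 4 members and by 26.9% of all features. IFIH1, the cytosolic sensor MDA5 of long double-stranded RNA, was at 2.71, 2.46 and 2.45 FPKM in L597R, WT and P-Enter, with all intervals holding 1.

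Differences between libraries moved with the GC content of transcripts. Spearman's correlation between GC content and the log2 difference over 9358 protein-coding genes was -0.70 in L597R against P-Enter, -0.46 in WT against P-Enter and -0.60 in L597R against WT. Over the 20 members with a mean of at least 1 FPKM it was -0.48, -0.17 and -0.37 in the same order, each from 1 pair of libraries. Of these 20, SAMD9 (36.1% GC) and IFIT5 (37.4%) had the least GC. After a regression on exon length, GC content and level over the protein-coding genes, the log2 difference of SAMD9 was 0.00 and that of IFIT5 0.04, against 0.38 and 0.37 before it. In WT against P-Enter they were 0.07 and 0.11 after it, against 0.21 and 0.23. IFIT1 stayed apart after the regression, at 0.34 in L597R against WT and -0.32 in WT against P-Enter. IFI35 was at 0.30 in WT against P-Enter and STAT2 at -0.27 in L597R against WT. Some other members lay farther from 0 after the regression than before it. In L597R against P-Enter NLRC5 was at 0.32 after it, against 0.15 before, and B2M at -0.23, against -0.01. HLA-E was at 0.14 there, against -0.01, and ISG15 at 0.16, against 0.04. The part of GC content in any single difference was not tested.

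**Figure D3:**
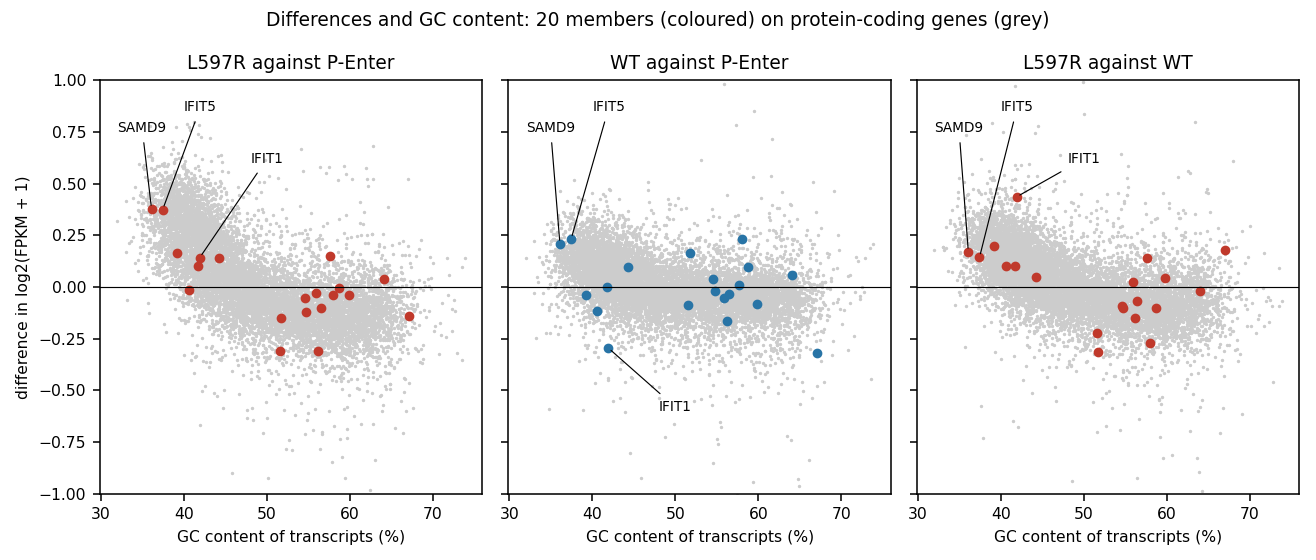
Difference in log2(FPKM + 1) against the GC content of the transcripts, for 9358 protein-coding genes (grey) and the 20 members (coloured), in the 3 comparisons. The axis ends at 1 and -1, which leaves out 11, 11 and 7 genes. SAMD9 and IFIT5 lie within the cloud of genes of low GC content, and IFIT1 lies at its lower edge in WT against P-Enter.

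The abundant antiviral genes differed by little. OAS3 was lower in L597R, with a ratio of 0.911 (0.862 to 0.964) against P-Enter and 0.925 (0.877 to 0.976) against WT, from 2677 reads in L597R, 2730 in WT and 2352 in P-Enter. After the regression these differences were -0.01 and -0.03 on the log2 scale. IFITM2 had a ratio of 0.930 (0.879 to 0.985) in L597R against P-Enter, and 0.05 on the log2 scale after the regression. IFITM3 had a ratio of 0.945 (0.908 to 0.984) in WT against P-Enter and 0.974 (0.936 to 1.01) in L597R against P-Enter.

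Transcripts of the listed genes of the ISG15 pathway were well detected in all libraries. ISG15, a ubiquitin-like protein that is coupled to other proteins, was at 22.2 FPKM in L597R, 22.5 in WT and 21.6 in P-Enter, and UBE2L6, the enzyme that carries it, at 15.2, 14.9 and 15.5. Every interval of both held 1, and for ISG15 in L597R against P-Enter it ran from 0.869 to 1.22. USP18, the protease that removes ISG15 and damps interferon receptor signalling, was lowest in L597R at 7.55 FPKM, against 8.97 in WT and 9.60 in P-Enter. The ratio was 0.787 (0.654 to 0.947) in L597R against P-Enter and 0.842 (0.703 to 1.01) in L597R against WT. Its log2 difference from P-Enter was -0.31 in L597R, and -0.23 after the regression.

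Among the other induced genes, IFI6, a small protein that inhibits flavivirus replication, was at 10.3 FPKM in L597R, 11.5 in WT and 13.0 in P-Enter. The ratio in L597R against P-Enter was 0.791 (0.632 to 0.990), from 160 and 162 reads. IFI35 was highest in WT, at 18.1 FPKM in L597R, 22.0 in WT and 18.6 in P-Enter. Its ratio was 0.821 (0.734 to 0.918) in L597R against WT and 1.18 (1.05 to 1.33) in WT against P-Enter. IFI44 had a ratio of 1.16 (1.01 to 1.33) in L597R against WT, and its log2 difference there was 0.20, and 0.01 after the regression.

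Several other members had few reads. MX1, a GTPase that blocks influenza virus, had 17 reads in L597R, 6 in WT and 10 in P-Enter. OASL had 17, 5 and 5, OAS1 had 23, 10 and 13, and OAS2 had 7, 0 and 7 in the same order. IFI27, a mitochondrial protein, had 3 reads in L597R, 2 in WT and 0 in P-Enter, and XAF1, which promotes apoptosis, had 0, 0 and 1. By FPKM, WT was the lowest or joint lowest library for MX1, OAS1, OAS2, OASL, IFITM1, TAPBP and XAF1. It was the highest for HLA-B, TAP2, IRF1, IRF9 and IFI44L, and lay between the others for IFIT2, ISG20 and IFI27. The ratio of L597R against WT was 2.67 (1.01 to 8.28) for MX1, 3.21 (1.14 to 11.1) for OASL and 5.66 (1.26 to 52.1) for IFITM1. For OAS2, with 0 reads in WT, its lower bound was 1.36. With TAPBP, the interval lay above 1 for 5 and below 1 for 0 of the 15 members that had a row and a mean under 1 FPKM, where 2.43% and 2.32% of features below that mean did. In L597R against P-Enter it lay above 1 for IFIT2 (2.11% of such features) and below 1 for ISG20 (3.23%), an exonuclease with 25 reads in L597R, 29 in WT and 37 in P-Enter. In WT against P-Enter it lay above 1 for 0 (1.71%) and below 1 for OAS2 alone (2.82%). Most of these values rest on so few reads that the intervals span several-fold. The features with a mean under 1 FPKM were not matched to the members for read counts, on which the intervals depend, so their shares are no like-for-like measure.

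**Figure D4:**
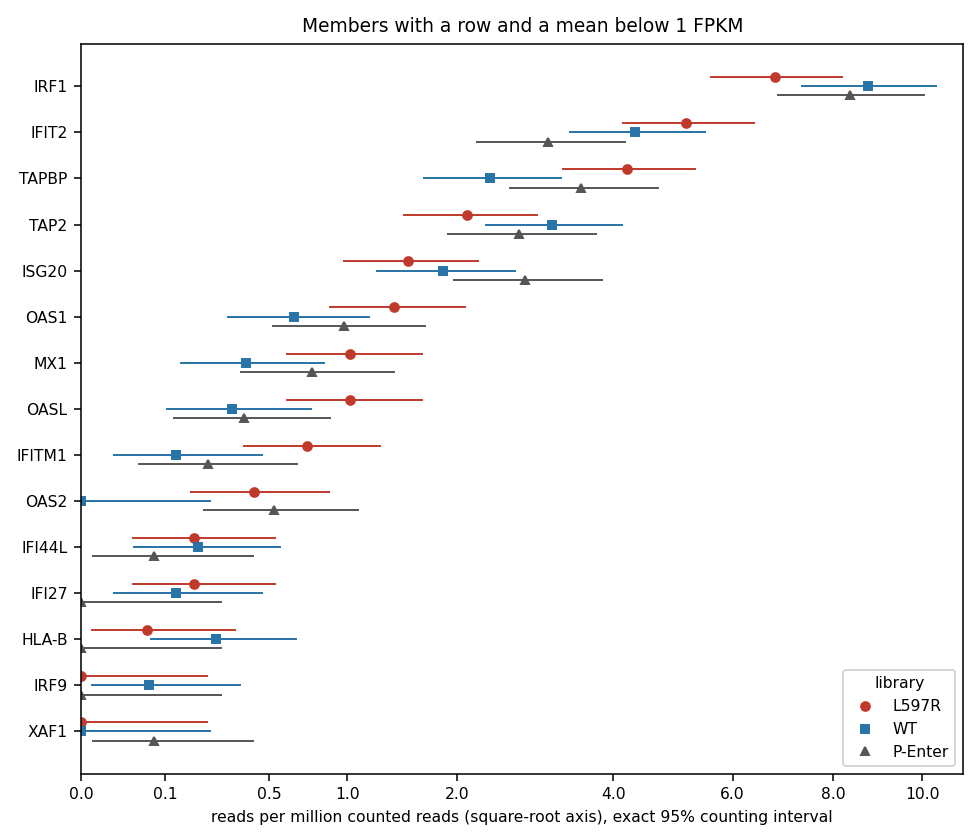
Reads per 1000000 counted reads, on a square-root axis, of the 15 members with a row and a mean under 1 FPKM, with exact 95% counting intervals; L597R as circles, WT as squares and P-Enter as triangles. The intervals of the 3 libraries overlap for most genes, with the L597R points of MX1, OASL, OAS1 and IFITM1 to the right of WT.

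Outside the list, 89 further genes of the pathway were looked at, of which 49 had a mean of at least 1 FPKM. Of these 0 passed the size rule upward and 1 downward in L597R against P-Enter, where 0.808% of all features passed in either direction. In WT against P-Enter (0.978%) and in L597R against WT (0.724%) 0 passed. The median difference of the 49 was -0.01, 0.01 and 0.04 in those comparisons. In L597R against P-Enter the interval lay above 1 for 22 and below 1 for 13 of them, beside 25.5% and 23.9% of all features. By role, it lay above 1 for 9 and below 1 for 2 of 15 other interferon-stimulated genes, with a median difference of 0.21, and 0.10 after the regression. It lay above 1 for 8 and below 1 for 4 of 14 receptors, kinases and STATs (median 0.15, and 0.06 after the regression). It lay above 1 for 2 and below 1 for 3 of 7 sensing genes (median -0.07), and above 1 for 3 and below 1 for 4 of 13 other genes of antigen presentation (median -0.10). In WT against P-Enter the 49 had 5 intervals above 1 and 6 below (14.0% and 12.1% of all features), and in L597R against WT 12 and 12 (22.1% and 16.3%).

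Single genes of these lists stood at the following levels. Of 10 listed interferon genes 9 had no row, and IFNE had 3 reads in L597R, 0 in WT and 3 in P-Enter. Among receptors, IFNAR1 of the type I receptor was at 12.9 FPKM in L597R, 10.6 in WT and 10.7 in P-Enter, while its partner IFNAR2 had 0, 1 and 0 reads, with 44.2% of its exon bases shared with other genes on the same strand. The gene past the rule was PSME2, a subunit of the proteasome activator PA28 that shapes peptides for class I molecules, at 8.88 FPKM in L597R against 19.3 in P-Enter (ratio 0.460, 0.412 to 0.512), with 15.1 in WT. IFNGR2, the signalling chain of the interferon gamma receptor, was at 1.04 FPKM in L597R, 2.25 in WT and 2.40 in P-Enter. Its ratio was 0.431 (0.289 to 0.635) in L597R against P-Enter and 0.461 (0.311 to 0.674) in L597R against WT. The log2 difference of IFNGR2 in L597R against P-Enter was -0.74, and -0.62 after the regression. PARP14, which is induced by interferon, was at 5.48 FPKM in L597R, 5.01 in WT and 3.90 in P-Enter, with a ratio of 1.41 (1.26 to 1.57) in L597R against P-Enter. TBK1, the kinase that activates IRF3, was at 3.35, 2.49 and 2.32 FPKM, with a ratio of 1.44 (1.28 to 1.62) in L597R against P-Enter. The log2 differences were 0.25 for PARP14 and 0.12 for TBK1 after the regression, against 0.40 and 0.39 before it. PSME2, IFNGR2, PARP14 and TBK1 were named for a difference past the size rule or an interval beyond a ratio of 5 to 4, so their differences are no sample of the 49. IFNE, IFNAR1 and IFNAR2 met neither and were chosen after their values were seen.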

How the data were processed

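RNA from 3 DU145 libraries was sequenced after Trizol extraction and a stranded mRNA kit, per the labels' protocols. The submitters' processing notes name HTSeq, Cufflinks, HISAT2 and Trimmomatic, and the build hg38. Versions, the annotation and the strand setting are not given in the sources used here. Deposited values were FPKM for each Ensembl gene ID, named so in the file headers. The members and gene lists were chosen with earlier results of these data known.

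Symbols came from a gene name table (23330 of 23379 IDs matched), and positions, exon lengths, overlaps and GC content from GENCODE 29 on GRCh38 (22807 matched). Library totals and whole reads were worked out from the steps in the FPKM values, within a tolerance of 1e-05 or the rounding of the deposited values, for 23376 genes; reads recovered summed to 100.8% of each total. Read ratios per library total have exact Clopper-Pearson 95% intervals given the sum of both counts. The size rule was a log2(FPKM + 1) difference of at least 1 with a mean of at least 1 FPKM over the 3 libraries; fold changes on this scale understate low genes. All members were accounted for, and those with a mean of at least 1 FPKM, or with an interval leaving out 1, are given with values in each library. Other pathway genes were named when past the size rule or with an interval beyond a ratio of 5 to 4, except IFNE, IFNAR1 and IFNAR2. The regression had cubic terms in log exon length, GC content and log mean FPKM over 9358 protein-coding genes and was added after the data were seen. The scripts were tested on simulated data. Alternatives were other pseudocounts, filters, a 1.5-fold threshold, rescaling, recovered reads and leaving out HLA and IFITM members. Software was matplotlib 3.10.9, statsmodels 0.14.6, scipy 1.17.1, pandas 2.3.3 and numpy 2.4.6 under Python 3.11.15.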

Additional observations from a re-analysis of the deposited data

How the results depend on the processing

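The number of members past the size rule was 0 in all 3 comparisons and under each alternative, including a pseudocount of 0.1 or 5, no filter, a mean of at least 5 FPKM, a 1.5-fold threshold, median-ratio rescaling and recovered reads with an interval beyond 1.5-fold. The alternative with no filter could show little. With a pseudocount of 1, a gene under 1 FPKM in both libraries cannot reach a log2 difference of 1. Of the members it added, only IFIT2 reached 1 FPKM in any library. Median log2 differences are small and their sign depends on the choice. In L597R against P-Enter, where the median was -0.021, it was 0 with no filter, -0.038 at a mean of at least 5 FPKM, -0.013 with rescaling, -0.013 without HLA and IFITM members and 0.030 after the regression. In WT against P-Enter (-0.0088) it was -0.034 at that mean, -0.00051 with rescaling, 0.0021 without HLA and IFITM members and 0.026 after the regression. In L597R against WT (0.035) it was 0.019 with a pseudocount of 5, 0.027 with no filter, -0.069 at that mean, 0.047 without HLA and IFITM members and -0.018 after the regression. The cause of these shifts was not tested. No paired analysis was possible because each group had 1 library. Depth limits the members under 1 FPKM, of which 8 of 37 listed had 10 or fewer reads in every library.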
